A study of Rattus norvegicus with 84 samples.

Results

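Extinction training after cocaine was set against withdrawal without it in the core of the rat nucleus accumbens. The comparison holds 14 of the 84 libraries of the study, taken by tissue and treatment label: 7 Core libraries labelled Ext_Coc and 7 Core libraries labelled HC_Coc. All came from wild-type Long-Evans rats and all carried the cocaine label, so that what differs between the groups is Ext or HC. Ext is extinction in the study's own terms, and HC commonly stands for home cage in this field, which the labels do not state. The other groups used here are Core Ext_Sal and HC_Sal, which received saline, and Shell Ext_Coc and HC_Coc, with 7 libraries each. The labels give no age, sex, dose or interval. Nothing in them ties a library to an animal of its own, and the p-values here reflect spread among libraries, which may be technical.

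The nucleus accumbens core is a striatal region that links cues to drug seeking. Most of its neurons are GABA-releasing projection neurons of the D1 and D2 dopamine receptor types, driven by glutamate from cortex, amygdala and thalamus. In extinction training an animal that has learned to take a drug performs the same response without receiving it, whereas withdrawal without training involves no such session. Immediate early genes are transcribed within minutes of neuronal activity and their products include the AP-1 transcription factors (the Fos and Jun families), the Egr and Nr4a factors and synaptic proteins such as Arc and Homer1. Glutamate uptake and cystine exchange by astrocytes in the core have been tied to relapse and extinction in rats.

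Each library held 13.6 to 22.5 M (mega) counts over the whole study. Ext_Coc libraries held 17.96 ± 1.854 M and HC_Coc libraries 18.34 ± 2.392 M counts (SD, n = 7 each; exact permutation test, two-sided p = 0.7191). The titles place the libraries in series 1, 2 and F, with 2, 3 and 2 libraries of each group, and series was a covariate of every fit. The libraries differed in the summed level of 2033 olfactory and vomeronasal receptor genes. Neurons outside the nose mostly keep these silent. This level averaged 8.689 ± 1.742 log2 CPM (the count of a gene relative to all counts of its library) in Ext_Coc and 8.853 ± 1.774 in HC_Coc libraries (SD, n = 7 each; exact permutation test, two-sided p = 0.7558). Within each group it was either low or high. It lay at 6.39 to 7.179 in 3 Ext_Coc libraries and at 6.58 to 7.579 in 3 HC_Coc libraries. In the other 4 Ext_Coc libraries it lay at 9.635 to 10.37, and in the other 4 HC_Coc libraries at 9.985 to 10.52. Series 2 held only libraries of the high level, series F only libraries of the low level, and series 1 both. Markers of projection neurons (D1-type, D2-type), astrocytes, oligodendrocytes, microglia and vessels were detected, and no marker of the 14 cell type lists was at 0 in all 14 libraries.

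No gene passed the test of Ext_Coc against HC_Coc across the transcriptome. Of 28619 genes tested, 0 passed an adjusted p of 0.05 in either direction (0%, edgeR quasi-likelihood test, Benjamini-Hochberg adjusted), and 110 had an unadjusted p under 0.05, 39 with a higher and 71 with a lower estimate in Ext_Coc libraries. Evenly spread p-values would put 1431 genes there. The test gave far fewer, so the lack of calls does not show that the groups were alike. With the receptor-gene level as a covariate 938 genes had such a p and 1 passed the adjusted threshold. The median standard error over all genes was 0.203 without and 0.113 with that covariate. The cause was not tested. In the fit without it the median log2 fold change over all genes was -0.04, and 59.1% of the estimates were below 0. For the 19110 genes with a mean of at least 1 log2 CPM the median standard error was 0.157, and the 95% confidence interval lay within -1 to 1 for 87.8% of them. A change by a factor of 2 is thus outside the interval of most expressed genes. The median distance from estimate to interval end was 0.34 on the log2 scale. Every gene named below failed the adjusted threshold in this test, with an adjusted p of 0.999888, and the p-values given are unadjusted.

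Immediate early genes had lower estimates in the fit over all 14 libraries, though not within each series. The estimate was lower in Ext_Coc than in HC_Coc libraries for 28 of 28 listed genes, beside 59.1% of all genes, with a median log2 fold change of -0.18 beside -0.04 for all genes. Of protein-coding genes 49.8% were lower, with a median of 0.0005. Members of the list ran from -0.45 to -0.01. The list median was -0.30 without HC_Coc 1-8 and -0.12 without HC_Coc 2-9. Of the 28, 3 had an unadjusted p under 0.05, all lower (0.248% of all genes did so in that direction), and 0 passed the adjusted threshold. In bulk tissue, fewer active cells and less RNA per active cell cannot be told apart.

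**Figure D1:**
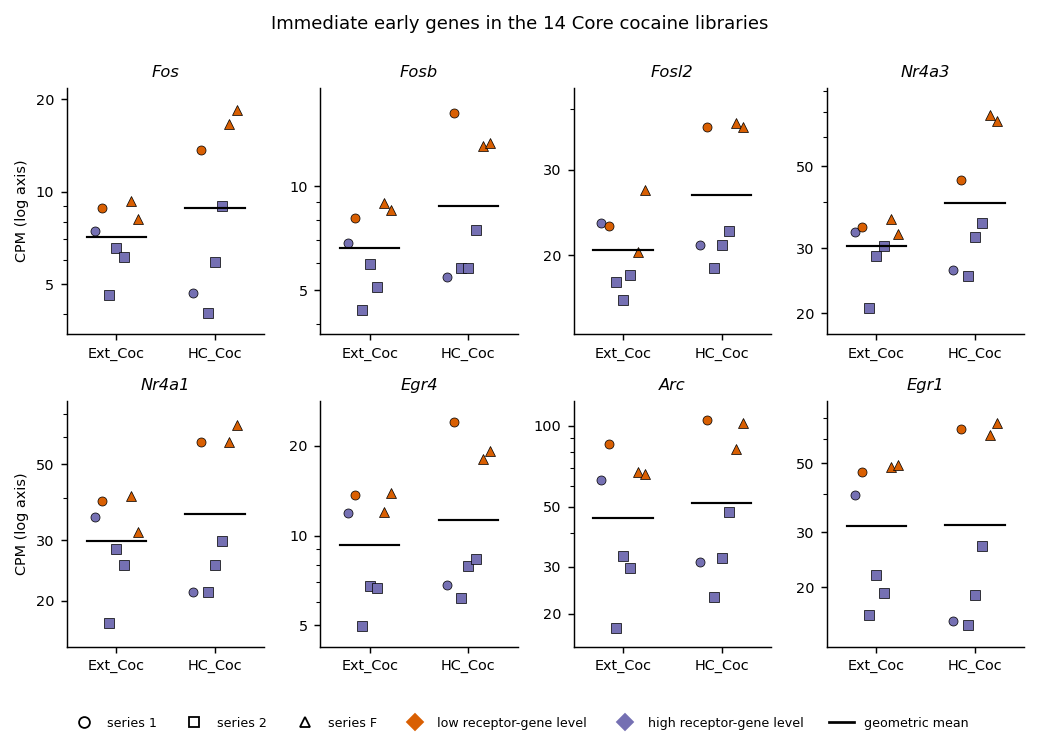
Level of 8 immediate early genes in CPM on a log axis in each of the 14 Core libraries, Ext_Coc left and HC_Coc right; the marker gives the series, the colour the receptor-gene level of the library, and the line the geometric mean. Among the 6 libraries of low receptor-gene level the HC_Coc values of Fos lie above the Ext_Coc values, while among the other 8 the values of the groups overlap.

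Fosl2, which encodes the AP-1 subunit Fra-2, had the lowest p of the list. Its level ran from 16.2 CPM over a median of 20.4 to 27.3 CPM in Ext_Coc libraries, against 18.9, 22.4 and 37.5 CPM in HC_Coc libraries, and the groups overlapped. Its log2 fold change was -0.39 ± 0.12 (SE; edgeR, unadjusted p = 0.0082), and 6 of 7 Ext_Coc libraries lay below the HC_Coc mean of log2 CPM.

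Nr4a3, a nuclear receptor induced by activity, ran from 20.6 over 32.7 to 36.0 CPM in Ext_Coc and from 25.2 over 35.0 to 69.0 CPM in HC_Coc libraries. All 7 Ext_Coc libraries lay below the HC_Coc mean, and the log2 fold change was -0.40 ± 0.17 (SE; edgeR, unadjusted p = 0.033). Fosb, whose truncated product ΔFosB accumulates in the accumbens with repeated cocaine, ran from 4.40 over 6.83 to 8.94 CPM in Ext_Coc and from 5.48 over 7.45 to 16.3 CPM in HC_Coc libraries. Its log2 fold change was -0.45 ± 0.20 (SE; edgeR, unadjusted p = 0.038), with 6 of 7 Ext_Coc libraries below the HC_Coc mean. For these 3 genes the highest HC_Coc libraries stood apart from the rest, while the lower part of the HC_Coc range was shared with Ext_Coc.

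Fos, the gene most used to mark active neurons, ran from 4.63 over 7.47 to 9.31 CPM in Ext_Coc and from 4.05 over 9.02 to 18.4 CPM in HC_Coc libraries. The HC_Coc libraries therefore spanned a wider range on both sides. Its log2 fold change was -0.39 with a 95% interval of -0.93 to 0.15 (edgeR, unadjusted p = 0.140). Nr4a1 differed by -0.29 ± 0.21 and Npas4, a factor restricted to neurons, by -0.17 ± 0.15 (SE, log2 fold change). Arc, which encodes a synaptic protein that moves AMPA receptors, differed by -0.26 ± 0.25, Egr1 by -0.12 ± 0.24, and the growth factor gene Bdnf by -0.21 ± 0.30 (SE, log2 fold change). None of these 5 could be told apart from 0. The plain medians of Arc, Egr1 and Nr4a1 were higher in Ext_Coc, at 63.0, 39.5 and 31.7 CPM against 47.8, 27.1 and 29.9 CPM in HC_Coc libraries. Those of Npas4 and Bdnf were lower, at 16.8 and 7.70 CPM against 18.3 and 8.93 CPM.

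The immediate early genes were then taken separately in the libraries of low and of high receptor-gene level, a division chosen after the data had been seen. It is nearly a division by series, since only series 1 held both levels. Receptor-gene level and series can therefore hardly be told apart in what follows. In the 6 libraries of low level 27 of 28 immediate early genes had a lower estimate in Ext_Coc, beside 55.4% of the 21369 genes tested there, with a median log2 fold change of -0.38 beside -0.02 for all genes. Of the 28, 14 had an unadjusted p under 0.05 and a lower estimate, beside 201 of all genes (0.941%), and 0 passed the adjusted threshold. In 13 of the 28, all 3 Ext_Coc libraries lay below all 3 HC_Coc libraries. This was so for 1304 of the 28619 genes tested over all 14 libraries (4.56%). In the 8 libraries of high receptor-gene level 15 of 28 had a lower estimate, beside 53% of the 30209 genes tested there, with a median of -0.002 beside -0.01. At an unadjusted p under 0.05, 2 had a lower and 1 a higher estimate (4.26% and 9.41% of all genes). In 0 of 28 did all 4 Ext_Coc libraries lie below all 4 HC_Coc libraries (507 of the same 28619 genes, 1.77%). The 8 libraries alone gave 7 genes past the adjusted threshold (0.0232%), none of them an immediate early gene. Chosen after their values were seen, these include Cd300ld, an immune receptor gene, with a log2 fold change of 1.00 (edgeR, adjusted p = 0.000858) and Fjx1 with 1.07 (edgeR, adjusted p = 0.0215).

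**Figure D2:**
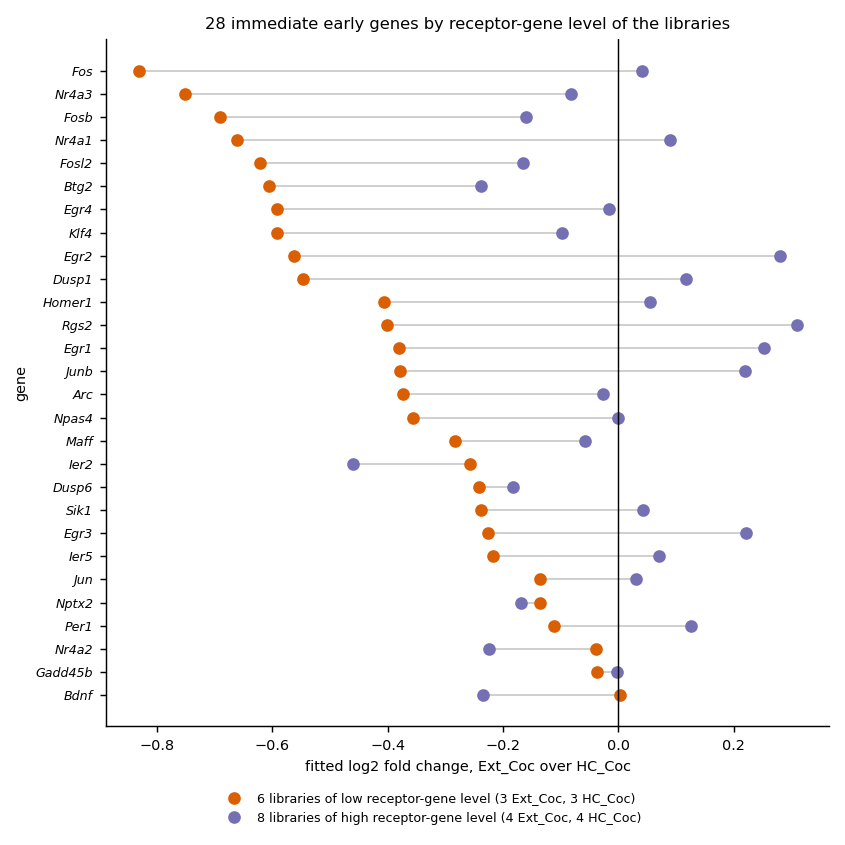
Fitted log2 fold change, Ext_Coc over HC_Coc, of 28 immediate early genes in the 6 libraries of low and the 8 libraries of high summed olfactory and vomeronasal receptor-gene level. The estimates of 27 genes lie below 0 in the 6 libraries and those of 15 genes in the 8 libraries.

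Fos shows the division library by library. Its level was 8.87, 9.31 and 8.18 CPM in the 3 Ext_Coc libraries of low receptor-gene level, against 13.7, 16.6 and 18.4 CPM in the 3 such HC_Coc libraries, and these sets did not overlap. In the libraries of high level it was 7.47, 4.63, 6.55 and 6.12 CPM in Ext_Coc, against 4.68, 4.05, 5.93 and 9.02 CPM in HC_Coc, and these overlapped throughout. The log2 fold change of Fos was -0.83 ± 0.14 in the first set and 0.04 ± 0.20 in the second (SE, edgeR). The difference between the sets was -0.93 ± 0.33 for Fos (edgeR, unadjusted p = 0.014, adjusted p = 0.519), -0.72 ± 0.23 for Nr4a3 (adjusted p = 0.494) and -0.50 ± 0.16 for Fosl2 (adjusted p = 0.500). For Arc it was -0.39 ± 0.39 (adjusted p = 0.855). Over all genes this difference passed the adjusted threshold for 0 of 28619 (0%), while 2176 had a lower and 170 a higher estimate at an unadjusted p under 0.05, the lower ones being 7.6% of all genes and 12 of the 28 immediate early genes. Its median was -0.45 for the immediate early genes and -0.15 for all genes.

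By series, the log2 difference of Ext_Coc minus HC_Coc was below 0 for 28 of 28 immediate early genes in series F (median -0.53), for 21 of 28 in series 2 (median -0.16) and for 7 of 28 in series 1 (median 0.11). Over all genes the shares below 0 were 70.4% in series F, 49.1% in series 2 and 40.8% in series 1. In series 1 the library HC_Coc 1-9, with a low receptor-gene level, held 13.7 CPM of Fos, and HC_Coc 1-8, with a high one, held 4.68 CPM. Without HC_Coc 1-9, 20 of the 28 estimates were below 0, the lowest such count with any single library left out. With the receptor-gene level as a covariate all 28 were below 0, with 7 at an unadjusted p under 0.05 (1.66% of all genes had such a lower estimate) and a median of -0.19.

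Promoters are shown for the immediate early gene of lowest p and for the gene of lowest p that holds a full cyclic-AMP response element, the site of the activity-dependent factor CREB, so that the sequence can be set beside the values. Both windows run from 250 bases before to 50 bases after the RefSeq start site in the build GRCr8, which is not the build of the counts. The Fosl2 window is chr6:30039220-30039519 and the Btg2 window chr13:48087641-48087940, both on the minus strand. Capitals mark TGACGTCA.
Fosl2: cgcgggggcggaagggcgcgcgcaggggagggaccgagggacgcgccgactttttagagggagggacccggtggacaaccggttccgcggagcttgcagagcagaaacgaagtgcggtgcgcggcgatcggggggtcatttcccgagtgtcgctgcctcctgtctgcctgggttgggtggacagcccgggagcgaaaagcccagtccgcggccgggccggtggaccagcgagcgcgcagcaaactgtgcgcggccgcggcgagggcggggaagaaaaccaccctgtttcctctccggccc
Btg2: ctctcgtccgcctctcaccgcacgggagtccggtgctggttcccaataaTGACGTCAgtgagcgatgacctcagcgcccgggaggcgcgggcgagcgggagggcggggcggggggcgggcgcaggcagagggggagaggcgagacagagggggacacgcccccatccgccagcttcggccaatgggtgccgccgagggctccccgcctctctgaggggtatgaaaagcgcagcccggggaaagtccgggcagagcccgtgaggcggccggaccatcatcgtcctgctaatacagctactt
Of 28 listed immediate early genes, 23 had a promoter in the RefSeq table. The full element TGACGTCA, which reads the same on both strands, was found in 4 of them, Ier2, Btg2, Dusp1 and Maff, and in 1.83% of all 33469 promoters of that length. The AP-1 letters TGACTCA, searched on both strands and not contained in TGACGTCA, were found in 0 of the 23 and in 4.63% of all promoters. Btg2, a growth-arrest gene, ran from 2.49 over 3.16 to 4.44 CPM in Ext_Coc and from 2.82 over 4.31 to 6.67 CPM in HC_Coc libraries. Fosl2, whose window held neither set of letters, had the lower p of the pair. A match describes the window only.

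The same contrast was made without cocaine. In Core saline libraries, Ext_Sal against HC_Sal, 21 of 28 immediate early genes had a lower estimate with a median of -0.22, beside 55.7% and -0.03 for all 28552 genes tested, and 1 of 28 had a lower estimate at an unadjusted p under 0.05 (0.0385% of all genes). Fos differed by -0.39 with cocaine and -0.53 with saline, Fosl2 by -0.39 and -0.35, and Nr4a3 by -0.40 and -0.57 (log2 fold change, Ext over HC). In the Shell, Ext_Coc against HC_Coc, 26 of 28 had a lower estimate with a median of -0.35, beside 47.4% and 0.03 for all genes, and 6 of 28 had a lower estimate at an unadjusted p under 0.05 (3.21% of all genes). Other lists shared this direction in the Shell, such as 14 of 14 general projection neuron markers and 20 of 20 sodium and calcium channel genes. Of choroid plexus and ependymal markers 9 of 12 were higher there. Lower estimates were found for 60.5% of protein-coding genes in the Shell (median -0.07) and for 43.3% in Core saline. No gene passed the adjusted threshold in either contrast (0 of 28552 and 0 of 28849, 0% in both, edgeR; 29 and 1264 at an unadjusted p under 0.05).

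Tests of the differences themselves also gave no call. The cocaine contrast minus the saline contrast in Core passed for 0 of 30650 genes (0%, edgeR; 63 at an unadjusted p under 0.05, 0.0979% with a lower and 0.108% with a higher value), and 14 of 28 immediate early genes had a lower value of that difference, beside 43.1% of all genes. Core minus Shell within cocaine passed for 0 of 30496 genes (0%, edgeR; 465 at an unadjusted p under 0.05, 0.744% with a lower and 0.78% with a higher value). For that difference 5 immediate early genes were lower and 23 higher, beside 55.4% and 44.6% of all genes, the median being 0.16. No immediate early gene had an unadjusted p under 0.05 in either difference.

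The same division by receptor-gene level was made in the other contrasts. Among Core saline libraries the immediate early genes were lower for 21 of 28 in the low-level set (3 Ext_Sal, 2 HC_Sal libraries, median -0.30 beside -0.12 for all genes) and for 24 of 28 in the high-level set (4 Ext_Sal, 5 HC_Sal libraries, median -0.20 beside 0.01). Among Shell cocaine libraries 25 of 28 were lower in the high-level set (7 Ext_Coc, 6 HC_Coc libraries, median -0.29 beside -0.01), and the low-level set held 1 HC_Coc library alone. These are differences of mean log2 CPM with no test.

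**Figure D3:**
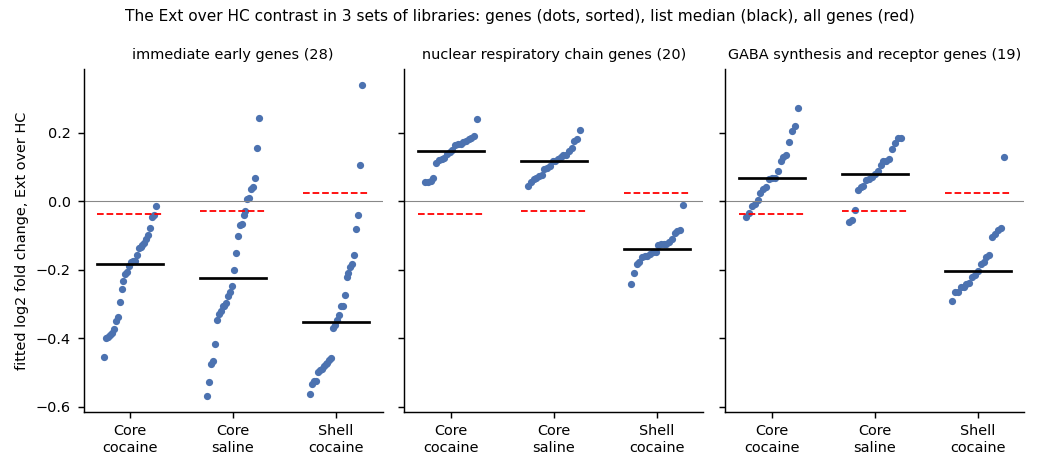
Fitted log2 fold change, Ext over HC, of each gene of 3 lists in Core cocaine, Core saline and Shell cocaine libraries; dots are genes sorted by value, black lines list medians and red dashed lines the median of all genes tested. Immediate early genes lie mostly below 0 in all 3, while respiratory chain genes lie above 0 in both Core contrasts and below it in Shell, as do most GABA genes.

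Nuclear genes of the respiratory chain leaned the other way. The estimate was higher in Ext_Coc for 20 of 20, beside 40.9% of all genes and 50.2% of protein-coding genes. Of 14598 protein-coding genes with a mean of at least 1 log2 CPM, 8105 were higher, with a median of 0.02. The 20 genes had a median log2 fold change of 0.15 and a range of 0.06 to 0.24, and 0 of 20 had an unadjusted p under 0.05. Single libraries moved the median of the 20: it was 0.02 without HC_Coc 1-8, 0.33 without HC_Coc 1-9 and 0.09 without Ext_Coc 1-3. Atp5f1c, a subunit of ATP synthase, ran from 20.6 over 32.4 to 57.6 CPM in Ext_Coc and from 18.3 over 21.5 to 49.5 CPM in HC_Coc libraries. The groups overlapped over most of their range, and its log2 fold change was 0.24 ± 0.18 (SE). Sdhb, of complex II, differed by 0.16 ± 0.13 and Ndufv1, of complex I, by 0.19 ± 0.17 (SE, log2 fold change). The 20 genes were all higher in Core saline as well, with a median of 0.12 (44.3% of all genes and 56.7% of protein-coding genes there). In the Shell 0 of 20 were higher, with a median of -0.14 (52.6% of all genes and 39.5% of protein-coding genes there). In the libraries of high receptor-gene level 20 of 20 were higher with a median of 0.33 and 16 had an unadjusted p under 0.05 (9.41% of all genes), and in those of low level 13 of 20 were higher with a median of 0.04. Cytosolic ribosomal protein genes were higher in 67 of 79, with a median of 0.07.

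**Figure D4:**
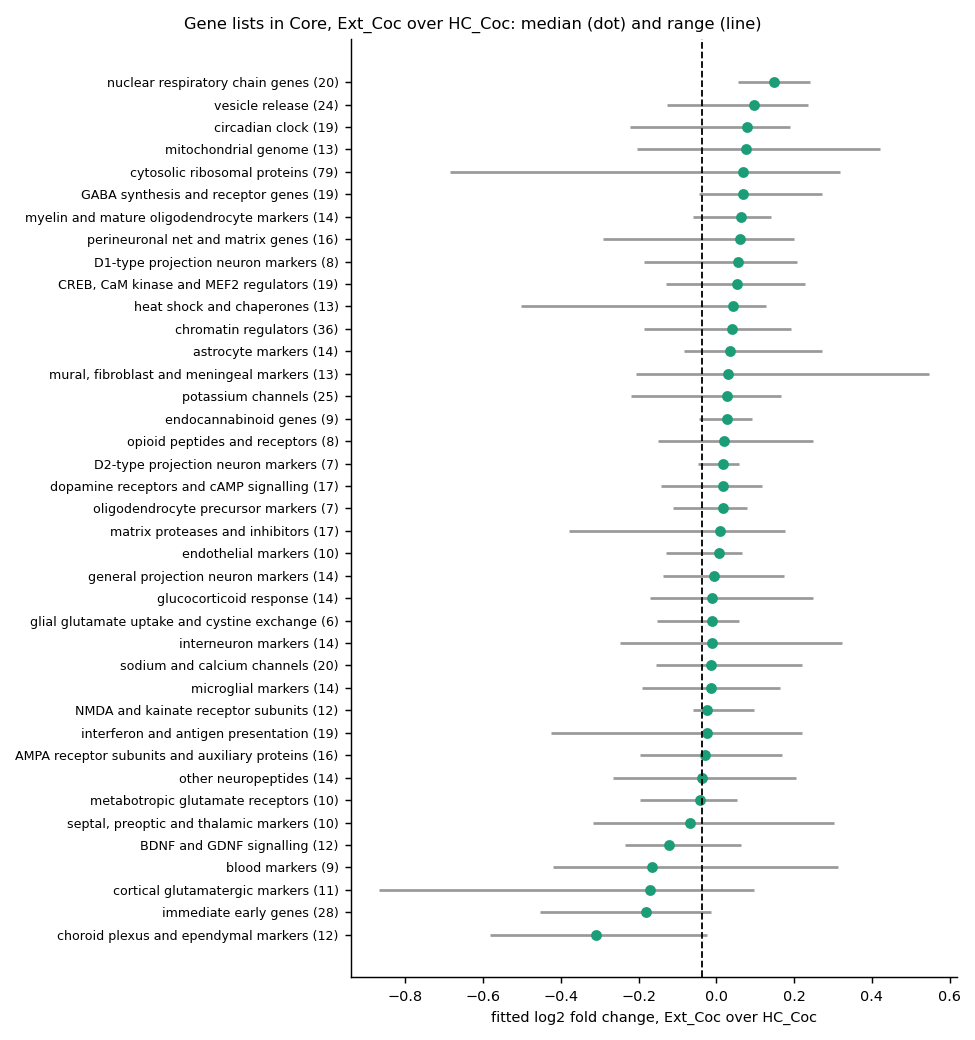
Median (dot) and range (line) of the fitted log2 fold change, Ext_Coc over HC_Coc in Core, for 39 gene lists with the number of members tested; the dashed line is the median of all genes. Nuclear respiratory chain genes have the highest median, 0.15, and choroid plexus and ependymal markers the lowest, -0.31, followed by the immediate early genes, an order over all 14 libraries that depends on single ones.

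Glutamate receptors and transporters, the genes most often studied in the core after cocaine, lay close to 0 over all 14 libraries. The AMPA receptor subunit genes Gria1 and Gria2 differed by -0.02 ± 0.16 and 0.08 ± 0.18, with 95% intervals of -0.36 to 0.32 and -0.31 to 0.46 (log2 fold change, SE). Of 16 AMPA receptor and auxiliary genes, 6 were higher and 10 lower, and 0 had an unadjusted p under 0.05. Grip1, an anchor of AMPA receptors, had the lowest p of the list, with a log2 fold change of -0.18 ± 0.12 (SE). In the libraries of high receptor-gene level 9 of the 16 were higher, 3 at an unadjusted p under 0.05 (edgeR, 9.41% of all genes). In those of low level 7 of 16 were higher, 0 at such a p. Gria2 was 0.22 ± 0.08 at high and -0.03 ± 0.10 at low level (SE). Of 10 genes for metabotropic receptors and their Homer scaffolds, 9 were lower and 1 higher, with a median of -0.04 beside -0.04 for all genes. Grm5, whose receptor signals through Gq, differed by -0.002 ± 0.17 with an interval of -0.38 to 0.38, and Grm2, an inhibitory autoreceptor, by -0.10 ± 0.28 (log2 fold change, SE).

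Of 6 genes for glial glutamate uptake and cystine exchange, 3 were higher and 3 lower, and 1 had an unadjusted p under 0.05. This was Slc7a11, which encodes the transport subunit xCT of the astrocyte cystine-glutamate exchanger. It ran from 32.1 over 35.4 to 37.9 CPM in Ext_Coc and from 36.2 over 39.4 to 41.98 CPM in HC_Coc libraries. All 7 Ext_Coc libraries lay below the HC_Coc mean although the ranges overlapped at their edges. Its log2 fold change was -0.15 ± 0.07 (SE; edgeR, unadjusted p = 0.037), and it was below 0 in series 1 (by -0.12), in the libraries of series 2 (-0.09) and in those of F (-0.28). Slc1a2, which encodes the main astrocyte glutamate transporter GLT-1, differed by -0.03 ± 0.17 with a 95% interval of -0.39 to 0.34.

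GABA and release genes had mostly higher estimates over all 14 libraries, within their spread. Of 19 genes for GABA synthesis, transport and receptors, 15 were higher, with a median of 0.07, and 0 had an unadjusted p under 0.05. Gad1, a GABA-synthesising enzyme, differed by 0.17 ± 0.17 (SE, log2 fold change). Of 24 vesicle release genes 19 were higher with a median of 0.10, among them Amph, an endocytosis adaptor, at 0.21 ± 0.12 (SE, log2 fold change). Both medians lay close to 0 or below it without 1 library of series 1, at -0.005 and -0.01 without HC_Coc 1-8 and at 0.004 and -0.005 without Ext_Coc 1-3, and were 0.18 and 0.24 without HC_Coc 1-9 and 0.13 and 0.17 without Ext_Coc 1-2. The GABA median was also 0.04 without Ext_Coc 2-1 and 0.04 without HC_Coc 2-8. In the libraries of high receptor-gene level 17 of 19 GABA genes were higher, 9 of them at an unadjusted p under 0.05, and 21 of 24 release genes, 13 of them at such a p (9.41% of all genes). In those of low level 8 of 19 and 13 of 24 were higher, 0 of either list at an unadjusted p under 0.05. In the Shell 18 of 19 GABA genes and 22 of 24 release genes were lower, with medians of -0.20 and -0.17. Of protein-coding genes 60.5% were lower there, with a median of -0.07.

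Over all 14 libraries, markers of the projection neurons did not differ beyond the spread. The dopamine receptor genes Drd1 and Drd2 differed by 0.10 ± 0.22 and 0.02 ± 0.16, the opioid peptide genes Pdyn and Penk by 0.21 ± 0.21 and 0.05 ± 0.25, and Cartpt by 0.14 ± 0.20 (SE, log2 fold change). Of 8 D1-type markers 5 were higher, and of 7 D2-type markers 4 were, with medians of 0.06 and 0.02. In the libraries of high receptor-gene level 6 of 8 and 6 of 7 were higher, 3 of each list at an unadjusted p under 0.05 (edgeR, 9.41% of all genes). In those of low level 2 of 8 and 0 of 7 were higher, and 1 of each list was lower at such a p (0.941% of all genes). Drd1 was 0.41 ± 0.15 at high and -0.11 ± 0.13 at low level, and Pdyn 0.41 ± 0.13 and 0.12 ± 0.14 (SE). No marker of either list passed the adjusted threshold. These genes varied more among libraries than between the groups: Penk ran from 166.5 over 314 to 686.1 CPM in Ext_Coc and from 131.4 over 190.6 to 593.1 CPM in HC_Coc libraries. In both groups the highest of these came from libraries of low receptor-gene level. Lhx6, a marker of interneurons, differed by 0.32 ± 0.16 (SE, log2 fold change), while of 14 interneuron markers 6 were higher and 8 lower, with a median of -0.01.

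Neurotrophin, protease and matrix genes gave several of the lower p-values. Of 12 genes of BDNF and GDNF signalling 11 were lower with a median of -0.12, beside 59.1% and -0.04 for all genes. With the receptor-gene level as a covariate 9 of 12 were lower with a median of -0.07, beside 47.9% of all genes. Sorcs3, a sorting receptor that limits BDNF signalling in neurons, had a log2 fold change of -0.16 ± 0.07 (SE; edgeR, unadjusted p = 0.044). Plat, which encodes tissue plasminogen activator, ran from 16.8 over 22.1 to 29.2 CPM in Ext_Coc and from 19.7 over 26.9 to 39.9 CPM in HC_Coc libraries, with a log2 fold change of -0.29 ± 0.11 (SE; edgeR, unadjusted p = 0.017). In the Shell cocaine libraries it was -0.56 (edgeR, adjusted p = 0.624), and in Core saline libraries 0.09. The protease gene Adamts1 lay below the HC_Coc mean in 7 of 7 Ext_Coc libraries, with a log2 fold change of -0.29 ± 0.13 (SE; edgeR, unadjusted p = 0.049). Of 17 protease and inhibitor genes 10 were higher and 7 lower, so the list as a whole had no shared direction.

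In 1 gene the libraries of the groups did not overlap, Sned1, which encodes an extracellular matrix glycoprotein. It ran from 22.1 over 25.9 to 27.2 CPM in Ext_Coc and from 27.3 over 28.8 to 31.5 CPM in HC_Coc libraries, alone among 28619 genes tested (0.00349%). The 14 libraries can be divided into groups of this size in 3432 ways, far fewer than the genes tested. Genes without overlap can thus arise by chance alone, and the lack of overlap does not single out Sned1. The gap between the sets was narrow, and the log2 fold change was -0.19 ± 0.07 (SE; edgeR, unadjusted p = 0.021). In Core saline libraries the estimate was 0.30, and the difference between the drugs had an unadjusted p of 0.024. Col5a2, a collagen chain, ran from 17.0 over 21.3 to 23.3 CPM in Ext_Coc and from 19.9 over 23.0 to 26.1 CPM in HC_Coc libraries, with a log2 fold change of -0.23 ± 0.08 (SE; edgeR, unadjusted p = 0.011). Both sets of libraries of low and high receptor-gene level gave Col5a2 a value below 0 (-0.25 and -0.19).

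Other genes of low p with a lower estimate belonged to no shared list. Slc35f4, a member of a nucleotide sugar transporter family, ran from 73.5 over 94.2 to 155 CPM in Ext_Coc and from 92.3 over 120.3 to 160 CPM in HC_Coc libraries, a log2 fold change of -0.36 ± 0.12 (SE; edgeR, unadjusted p = 0.011). Cd74, the invariant chain of class II antigen presentation, lay below the HC_Coc mean in 7 of 7 Ext_Coc libraries at a low level of 1.10 to 2.76 CPM, against 2.18 to 3.65 CPM in HC_Coc libraries (log2 fold change -0.43 ± 0.16, SE; edgeR, unadjusted p = 0.021). Of the 19 tested members of the interferon and antigen presentation list, Cd74 among them, 8 were higher and 11 lower. The cytokine gene Il4 differed by -0.48 ± 0.17, Klhdc7a by -0.34 ± 0.13, Tdrp by -0.21 ± 0.08 and Tmc7 by -0.16 ± 0.07 (SE, log2 fold change). Nfil3, a transcription factor of the clock, differed by -0.22 ± 0.10 (SE; edgeR, unadjusted p = 0.042), while 13 of 19 clock genes were higher.

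**Figure D5:**
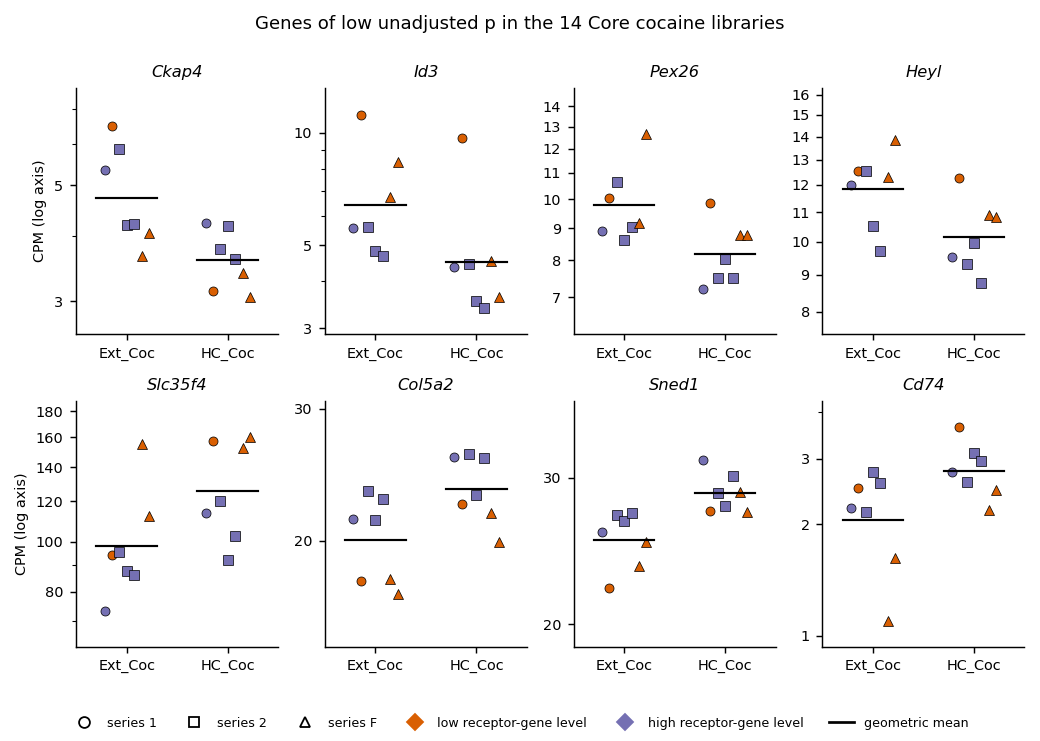
Level in CPM on a log axis of 4 genes with a higher (upper row) and 4 with a lower (lower row) estimate and a low unadjusted p in each of the 14 Core libraries, Ext_Coc left and HC_Coc right; marker, colour and line as in the plot of immediate early genes. Sned1 has no overlap between the groups, and the other 7 do.

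Among the genes with a higher estimate, 2 belong to pathways that act in glia and vessels. Id3, an inhibitor of basic helix-loop-helix factors and a target of BMP signals, ran from 4.68 over 5.59 to 11.2 CPM in Ext_Coc and from 3.40 over 4.37 to 9.71 CPM in HC_Coc libraries. All 7 Ext_Coc libraries lay above the HC_Coc mean of log2 CPM, and the log2 fold change was 0.49 ± 0.21 (SE; edgeR, unadjusted p = 0.035). Heyl, a Notch target of mural cells, differed by 0.22 ± 0.09 with 6 of 7 libraries above that mean (SE, log2 fold change). Ckap4, a membrane protein of the endoplasmic reticulum, ran from 3.66 over 4.22 to 6.52 CPM in Ext_Coc and from 3.05 over 3.62 to 4.25 CPM in HC_Coc libraries, a log2 fold change of 0.40 ± 0.14 (SE; edgeR, unadjusted p = 0.016). Pex26, needed for import into peroxisomes, differed by 0.26 ± 0.11, Psmg3, a chaperone of proteasome assembly, by 0.41 ± 0.18, and Gstt3, a glutathione transferase, by 0.40 ± 0.16 (SE, log2 fold change). The matrix genes Tnc and Bgn differed by 0.20 ± 0.09 and 0.24 ± 0.11, and the mitochondrially encoded complex I gene ND3 by 0.42 ± 0.18 (SE, log2 fold change). Tnc was 0.49 ± 0.09 in the libraries of low receptor-gene level and 0.01 ± 0.08 in those of high level, and Bgn 0.27 ± 0.16 and 0.24 ± 0.11 (SE).

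Sirt4, listed for a mitochondrial sirtuin, had the second lowest p among the higher estimates of genes with a symbol and a mean of at least 1 log2 CPM, 0.45 ± 0.18 (log2 fold change, SE; edgeR, unadjusted p = 0.026). It was 0.96 ± 0.19 in the libraries of low receptor-gene level and 0.08 ± 0.11 in those of high level (SE). Its counts, 530 to 1283 per library, were 0.989 to 1.01 times those of LOC120096003 and 1.02 to 1.12 times those of LOC120096085, a small nuclear RNA gene that lies within the span of Sirt4 in RefSeq, in each of the 14 libraries. The value listed for Sirt4 therefore cannot be told apart from that of the small nuclear RNA. Small nuclear RNA genes as a class, looked at for this reason after the values had been seen, had a higher estimate in 36 of 41, with a median of 0.42, but many are near-identical copies whose counts are uncertain. Their median within series F was 1.00, within series 1 0.49 and within series 2 -0.16. In Core saline 32 of 40 were higher (median 0.20) and in Shell cocaine 6 of 38 (median -0.33).

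Choroid plexus and cortical markers, which come from neighbouring tissue, had mostly lower estimates in Ext_Coc, and some followed the receptor-gene level. Choroid plexus and ependymal markers were lower in Ext_Coc for 12 of 12, with a median of -0.31, and 0 had an unadjusted p under 0.05. The median was -0.55 without Ext_Coc 1-2, -0.17 without Ext_Coc 1-3, -0.06 without HC_Coc 1-8 and -0.11 without HC_Coc 5-F. With the receptor-gene level as a covariate it was -0.08, and 11 of 12 markers were lower. Their summed level ran from 12.2 to 74.2 CPM in Ext_Coc and from 14.9 to 81.5 CPM in HC_Coc libraries, a range far wider than the difference, and none was at 0 in all libraries. Among them Clic6 had 181 to 306 counts in the libraries of high receptor-gene level and 6 to 65 in those of low level. Foxj1 did not divide in this way, with 19 to 35 and 9 to 55 counts. Cortical glutamatergic markers were lower for 10 of 11, with summed levels of 226 to 384 CPM in Ext_Coc and 242 to 402 CPM in HC_Coc libraries. Of these 0 had an unadjusted p under 0.05 (edgeR), and within series 1 9 of 11 were higher. Slc17a7, the vesicular glutamate transporter of cortical neurons, ran from 1.91 over 4.01 to 63.6 CPM in Ext_Coc and from 3.58 over 13.2 to 32.4 CPM in HC_Coc libraries. By series its log2 difference was 1.01 (series 1), -1.16 (series 2) and -1.40 (F), so neither group was higher throughout. The smooth muscle genes Acta2 and Tagln were highest in 1 Ext_Coc library, 1-2, at 20.6 and 17.6 CPM. The part of these tissues in the values above was not tested.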

How the data were processed

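Total RNA of the nucleus accumbens core was extracted with a column kit and made into stranded total RNA libraries (SMARTer v3 Pico kit), as the labels' protocols give it, so that unspliced RNA is also counted. The deposited values are raw counts per gene, made by the authors with featureCounts on mRatBN7.2, which the submitters' processing notes name. No aligner, annotation release or strand setting is given in the sources used here, so overlapping genes cannot be told apart. Deposited FPKM values were not used. The table held 41919 genes, 0 blank entries and 0 unused columns, and 29367 identifiers matched RefSeq symbols. No 2 of the 14 libraries were identical (highest correlation 0.99).

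Groups came from the titles. Genes kept by filterByExpr were scaled by TMM and tested with the two-sided quasi-likelihood F test of edgeR 4.0.16 (R 4.3.3) with series as covariate, with Benjamini-Hochberg adjustment over all genes and a threshold of 0.05. The 14 libraries of the 2 groups entered the fit; the difference between drugs and that between subregions were interaction terms over 28 libraries each. Standard errors are the log2 fold change over the root of F. Levels are CPM; log2 CPM used a prior count of 2. Alternatives included DESeq2 1.42.0. The procedure was tested on simulated data. The members and lists were chosen with earlier results of these data known. Named genes were the 10 of lowest p in each direction with at least 1 log2 CPM and a symbol, up to 3 of lowest p per list for 39 lists, 18 chosen genes and the 5 of lowest p in each difference; LOC120100296 and the small nuclear RNAs were chosen after their values were seen. Promoters are from RefSeq (GRCr8). Some genes that met the naming rule are not reported here.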

Additional observations from a re-analysis of the deposited data

Results flagged for a closer look

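In groups of 7 libraries, a value counts as standing apart where its gap to the next, over the range of the group, exceeds Dixon's critical value at 95%. For genes the rule was applied to log2 CPM, while the values below are given in CPM. Of 142 sets tested, 6 met this, where chance alone gives about 1 in 20.

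Nr4a3 was lowest in Ext_Coc library 2-1 at 20.6 CPM, with the next at 28.6 CPM. Acta2, a smooth muscle gene, was highest in Ext_Coc library 1-2 at 20.6 CPM, with the next at 6.6 CPM, and Tagln was highest in the same library. Trnl1, a mitochondrial leucine transfer RNA gene, was highest in Ext_Coc library 1-F at 46.8 CPM, with the next at 17.1 CPM. The total of Ext_Coc library 9-F was 14.1 M counts, with the next lowest at 17.6 M. In HC_Coc library 1-9, Id3 was highest at 9.71 CPM, with the next at 4.54 CPM, and Foxj1, a factor of ciliated ependymal cells, was highest at 4.02 CPM, with the next at 1.44 CPM.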

How the results depend on the processing

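The Ext_Coc against HC_Coc fit called 0 genes except under 3 settings. With the background level as a covariate it called 1 and with DESeq2's Wald test 1, the same gene LOC120100296. With the 8 high-background libraries alone, added after seeing the data, it called 7, and with the 6 low-background ones 0; the cause was not tested. Leaving out any 1 library gave 0 calls, with 65 (without HC_Coc 5-F) to 1122 genes (without HC_Coc 1-9) at an unadjusted p under 0.05, and 419 without Ext_Coc 1-2. The other 4 comparisons called 0 genes under every setting. No paired analysis was possible because the numbers of the Ext_Coc and HC_Coc titles do not overlap; for Core minus Shell, the fit with a replicate block linking numbered Core and Shell libraries called 0 genes, with 154 at an unadjusted p under 0.05.

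Some genes changed sign, among them Slc17a7 (-0.87 over all 14 libraries), Fos (-0.39) and Nr4a1 (-0.29). With the background level as a covariate Drd2 was -0.0239. With DESeq2 size factors Grm5 was 0.00409, and with the Wald test 0.00409. Without the series covariate Slc17a7 was 0.161. Without the F series Drd2 was -0.00724, Grm2 0.0300 and Grm5 0.0105. In the low-background libraries Bdnf was 0.00300, Cartpt -0.00573, Drd1 -0.107, Drd2 -0.00378, Gad1 -0.00934, Gria1 0.00539, Gria2 -0.0312 and Penk -0.108. In the high-background ones Egr1 was 0.253, Fos 0.0416, Grm5 0.0440, Junb 0.220, Nr4a1 0.0888 and Slc1a2 0.0223. With 1 library left out the ranges were -0.414 to 0.00588 for Bdnf, -0.0615 to 0.315 for Drd1, -0.0573 to 0.169 for Drd2, -0.296 to 0.0872 for Egr1, -0.125 to 0.0934 for Gria1, -0.0215 to 0.248 for Gria2, -0.347 to 0.0230 for Grm2, -0.103 to 0.135 for Grm5, -0.282 to 0.141 for Junb, -0.0952 to 0.341 for Penk and -0.125 to 0.114 for Slc1a2 (log2 fold changes). The count of immediate early genes with a lower estimate was 22 of 28 without the F series and 20 to 28 with 1 library left out. Depth limits low genes: LOC120100296 had 3 to 542 counts per library.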

Other observations

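LOC120100296, a gene without an entry in the RefSeq table, was chosen after its values were seen. It had 17, 53, 48, 66, 90, 542 and 165 counts in the 7 Ext_Coc libraries, against 3, 7, 34, 18, 9, 60 and 18 counts in the 7 HC_Coc libraries. Ext_Coc libraries were higher on average in each series, and 2 of them, both of series F, held the highest counts. Its log2 fold change was 2.54 ± 0.49 (SE; edgeR, adjusted p = 0.999888). It passed the adjusted threshold with DESeq2's Wald test at 2.54 (adjusted p = 0.00225) and with edgeR and the receptor-gene level as a covariate at 2.49 (adjusted p = 0.0415).

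Igbp1, which encodes a regulator of protein phosphatase 2A, differed by 1.12 with cocaine and -0.78 with saline (log2 fold change, Ext over HC in Core; edgeR, unadjusted p of the difference 0.0064, adjusted p = 0.999993). Its level ran from 18.5 over 60.4 to 190.4 CPM in Ext_Coc and from 12.4 over 29.2 to 76.7 CPM in HC_Coc libraries. With cocaine it was 0.61 without Ext_Coc 1-F. Trnl1 differed by -1.11 with cocaine and 1.17 with saline (edgeR, unadjusted p of the difference 0.0067, adjusted p = 0.999993), and ran from 12.2 over 14.3 to 46.8 CPM in Ext_Coc and from 15.8 over 19.2 to 179.9 CPM in HC_Coc libraries. With cocaine it was -0.47 without HC_Coc 1-9.

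The heat shock genes stood apart by receptor-gene level. In the 8 libraries of high level 11 of 13 were higher in Ext_Coc, with a median of 0.36, and in the 6 of low level 2 of 13 were, with a median of -0.18. The difference had an unadjusted p under 0.05 for 9 of 13 genes, all lower in the low-level libraries, beside 2176 of 28619 genes, and 0 passed the adjusted threshold.

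Long non-coding RNA genes had a lower estimate in 79.2% of 5075, with a median log2 fold change of -0.15, beside 49.8% of 17299 protein-coding genes. With the receptor-gene level as a covariate the share was 52%, with a median of -0.01. It was 79.7% in Core saline and 21.6% in Shell cocaine libraries.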
